A study of Homo sapiens with 4 samples.

Results

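SR proteins and hnRNPs are the RNA-binding proteins that set which exons of a transcript are kept, and CLK kinases phosphorylate SR proteins. The genes described here are the symbols that start with SRSF and a number, TRA2A and TRA2B, the symbols that start with HNRNP and a further letter, and CLK1 to CLK4. Symbols with a hyphen were left out, and a mean of at least 1 FPKM over the 4 libraries was required. FPKM is fragments per kilobase of transcript and per 1000000 fragments of the library, so it allows for transcript length and library size. Of 26255 symbols, 47 matched and 40 passed: 13 SR proteins (11 SRSF genes with TRA2A and TRA2B), 23 hnRNPs and 4 CLK kinases. The lowest that passed was HNRNPA1L2, with a mean of 2.49 FPKM. Just below stood SRSF12, with a mean of 0.400 FPKM, then HNRNPA3P1 at 0.0123, while the other 5 (HNRNPCL1 to HNRNPCL4 and HNRNPKP3) were listed at 0 in every library.

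The cells were A549, an established human lung adenocarcinoma line, labelled wild type, with 5 days of culture in medium with 5% serum. The 4 groups were 3D hypoxia (on set Matrigel, 1% oxygen), 3D normoxia (on Matrigel), 2D hypoxia (in an ordinary dish, 1% oxygen) and 2D normoxia (in an ordinary dish). Matrigel is a gelled extract of basement membrane. Each group had 1 library, all from the same line, and nothing in the labels says whether the cultures were independent. The study set out to describe the structures that low oxygen induces in these cells and their link to micropapillary lung adenocarcinoma. In bulk RNA, a lower level per cell and fewer cells with that level cannot be told apart.

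As background, SR proteins carry an RNA recognition motif and a stretch rich in arginine and serine. They bind mostly within exons and recruit the spliceosome, and phosphorylation of the stretch by CLK and SRPK kinases controls where in the nucleus they sit and how active they are. hnRNPs coat nascent transcripts and often repress exons or compete with SR proteins. Many genes of both families control their own mRNA through exons that trigger its decay. Gene-level FPKM sums over a gene's transcripts and cannot show such exon choice.

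All 6 genes chosen to check the oxygen labels rose in hypoxia. CA9, a carbonic anhydrase and a target of hypoxia-inducible factors, was at 199.7 and 138.5 FPKM in 3D and 2D hypoxia, against 4.05 and 4.0 FPKM in 3D and 2D normoxia. Of the A549 markers, the keratins KRT8 and KRT18 and the enzymes ALDH1A1 and AKR1B10 lay between 1276 and 4277 FPKM in every library, while EPCAM was at 1.43 to 2.73 FPKM. All 4 blood cell markers had means under 1 FPKM, with CD3E listed at 0 throughout, and of 4 endothelial and fibroblast markers only COL1A1 exceeded a mean of 1 (0.614, 0.856, 13.2 and 2.32 FPKM in 3D hypoxia, 3D normoxia, 2D hypoxia and 2D normoxia). Depth inferred from the commonest low values was about 11.3, 11.8, 38.8 and 23.7 times 1000000 fragments in the same order. At those depths, and for a transcript of 1 kb, the counting error of a member's log2 ratio between a pair of libraries lay between 0.02 and 0.20, and reached 0.38 for HNRNPA1L2 alone.

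Copies of HNRNPA1 had to be set apart before the values could be read. HNRNPA1 encodes hnRNP A1, an abundant exon repressor, and lies on chromosome 12 (GENCODE 29, GRCh38). HNRNPA1P10 (chromosome 19) and HNRNPA1P33 (chromosome 10) are annotated as processed pseudogenes, copies of its mRNA, and HNRNPA1L2 (chromosome 13) is a copy annotated as coding. Aligned to the coding sequence of HNRNPA1 (963 bases), HNRNPA1P10 matched at 99.6% of 962 bases, HNRNPA1L2 at 98.4% of 963 bases and HNRNPA1P33 at 96.1% of 558 bases. The stretch shown, coding bases 637 to 696, is the 60-base stretch with the most differences over the 3 copies, and is shown because a fragment that lies within it can be placed only by those few bases. Capitals mark bases that differ from HNRNPA1.
HNRNPA1: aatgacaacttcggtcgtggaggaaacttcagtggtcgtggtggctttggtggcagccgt
HNRNPA1P10: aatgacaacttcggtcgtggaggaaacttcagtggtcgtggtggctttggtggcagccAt
HNRNPA1P33: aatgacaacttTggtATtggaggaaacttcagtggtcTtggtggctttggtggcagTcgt
HNRNPA1L2: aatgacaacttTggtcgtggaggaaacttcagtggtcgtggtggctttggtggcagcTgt
Over all annotated transcripts, 88.4% of the 50-base windows of HNRNPA1P10 also occurred in another gene, as did 58.5% of those of HNRNPA1L2, 24.8% of HNRNPA1P33 and 22.8% of HNRNPA1. For these 4 symbols the split of fragments is therefore uncertain. The median share over the 40 members was 1.39%, and 31 members had at most 10%. SRSF1 (50.8%), HNRNPUL2 (43.2%, mostly with the readthrough symbol HNRNPUL2-BSCL2), HNRNPA3 (16.5%), HNRNPH2 (15.0%) and HNRNPL (11.2%) were the others above 10%. The sources used here do not state the read length, and 50 bases served only as a yardstick.

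Levels spanned more than 2 orders of magnitude among the members and moved little between libraries. HNRNPA1 was the highest of them, at 600.4, 444.0, 455.2 and 391.8 FPKM in 3D hypoxia, 3D normoxia, 2D hypoxia and 2D normoxia. HNRNPA2B1, a close relative of HNRNPA1, followed with a mean of 314.8 FPKM, then HNRNPK, a poly(C) binder (243.8), HNRNPH1, a G-run binder (204.2), and the pseudogene HNRNPA1P10 (171.5). The highest SR proteins were SRSF9 and SRSF2, with means of 128.1 and 122.2 FPKM, and the lowest was SRSF8, at 8.48 FPKM. The CLK kinases had means between 8.78 FPKM (CLK4) and 26.1 FPKM (CLK1). Summed over members, hnRNPs came to 2776, 2647, 3085 and 2940 FPKM in the order above, SR proteins to 719.1, 755.3, 802.9 and 737.5 FPKM, and CLK kinases to 86.0, 65.0, 80.1 and 66.9 FPKM. The SR sum was thus lowest in 3D hypoxia and, as deposited, highest in 2D hypoxia, although as a share of each library's FPKM sum it was 0.121%, 0.139%, 0.154% and 0.156% in the same order, highest in 2D normoxia. By contrast, the CLK sum was higher in both hypoxia libraries than in both normoxia libraries, but not every kinase was. CLK1, at 36.1 and 30.1 FPKM in 3D and 2D hypoxia against 21.1 and 16.9 FPKM in 3D and 2D normoxia, moved the most. As deposited, CLK4 also stood above without overlap, as did 16.7% of all genes, while CLK2 and CLK3 overlapped between oxygen levels.

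**Figure D1:**
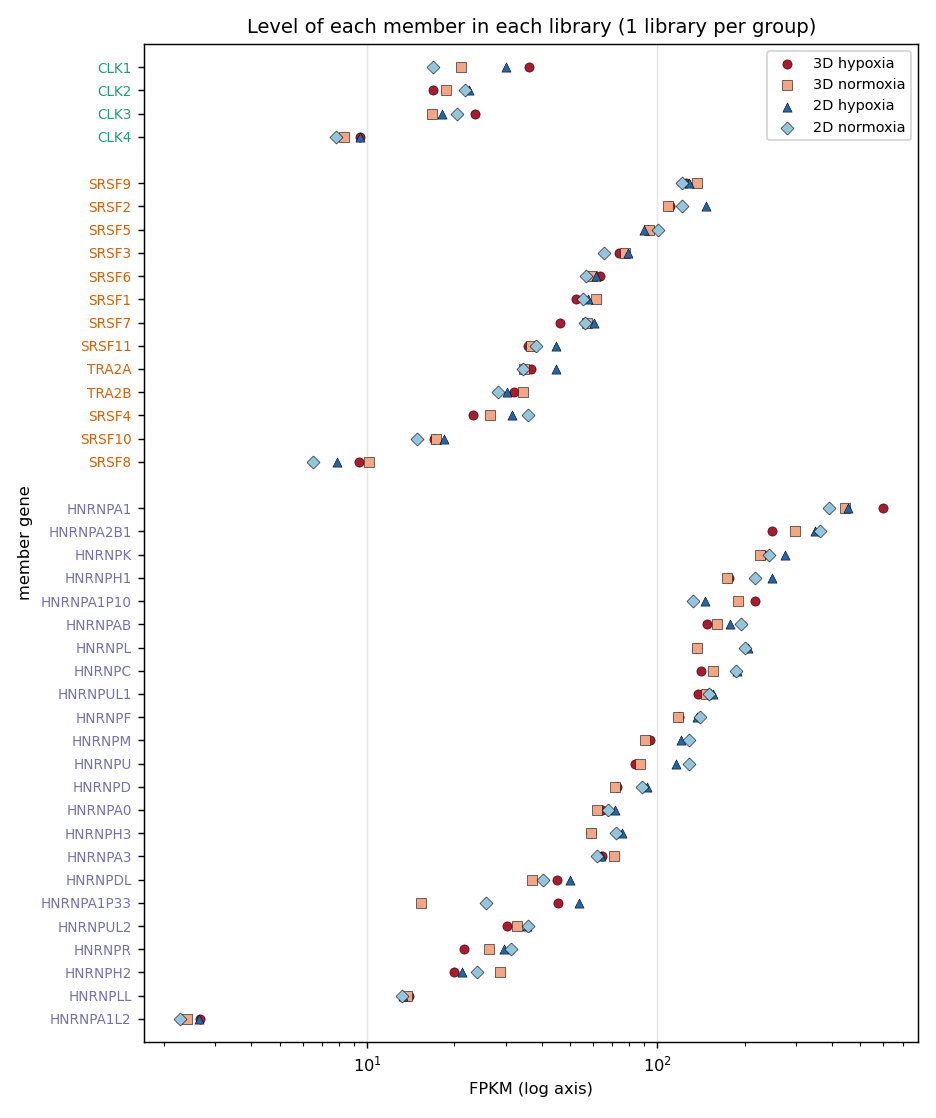
FPKM of the 40 members on a log axis, grouped as CLK kinases, SR proteins and hnRNPs and ordered by mean, with 1 symbol per library. Most members' 4 symbols lie close together, while HNRNPA1P33 (15.4 to 53.7 FPKM) and CLK1 (16.9 to 36.1 FPKM) spread the most.

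On the log2(FPKM + 1) scale, the distance between a member's highest and lowest library had a median of 0.37, against 0.55 over the 12663 genes whose mean reached 1 FPKM and 0.56 over the 6685 whose mean reached 10 FPKM. It was smallest for HNRNPLL, a relative of HNRNPL, at 0.08 (13.9, 13.7, 13.3 and 13.2 FPKM in the order above). It reached 1 in 2 of 40 members, HNRNPA1P33 (1.74) and CLK1 (1.05), a share of 5.0% against 16.5% of all those genes.

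Hypoxia was compared with normoxia as an average over both cultures with limma, on log2(FPKM + 1) with culture as a second term and Benjamini-Hochberg adjustment over all 12663 genes. Of 40 members 2 rose, CLK1 and HNRNPA1P33, and 0 fell. That is 5.0% of members, beside 4.84% of all genes called either way (3.2% up and 1.64% down), and 4 members against 25.6% of all genes had an unadjusted p under 0.05. The calls of the 2 members held under 6 of 7 alternative settings and were lost without the filter on low values, where limma called only 5 genes in all. CLK1 held only narrowly after centring on the library medians (limma adjusted p = 0.0497) and without trend in the fit (0.0481).

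CLK1 is a kinase with dual specificity that phosphorylates the arginine-serine stretches of SR proteins and regulates splicing of its own transcript. It was at 36.1 and 30.1 FPKM in 3D and 2D hypoxia, against 21.1 and 16.9 FPKM in 3D and 2D normoxia. Both hypoxia libraries stood above both normoxia libraries. The log2 ratios were 0.74 in 3D and 0.80 in 2D (counting errors 0.12 and 0.08 for 1 kb), and the average effect was 0.77 ± 0.11 (SE, limma adjusted p = 0.0295). CLK1 made up 42.0% and 37.6% of the CLK sum in 3D and 2D hypoxia, against 32.5% and 25.2% in 3D and 2D normoxia.

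None of the other 3 CLK kinases passed, which was not a test of their difference from CLK1. CLK4, the closest relative of CLK1, was at 9.49 and 9.46 FPKM in 3D and 2D hypoxia, against 8.36 and 7.81 FPKM in 3D and 2D normoxia. Its groups did not overlap as deposited, as in 16.7% of all genes that stood above, but they overlapped after rescaling to a common FPKM sum. The average effect of 0.21 ± 0.12 did not pass (limma adjusted p = 0.317). CLK2 was at 16.8 and 22.4 FPKM in 3D and 2D hypoxia, against 18.7 and 21.8 FPKM in 3D and 2D normoxia, so that its groups overlapped (-0.05 ± 0.12, limma adjusted p = 0.82). CLK3 was at 23.6 FPKM in 3D hypoxia against 16.8 FPKM in 3D normoxia, and at 18.1 FPKM in 2D hypoxia against 20.5 FPKM in 2D normoxia. Its log2 ratio was thus 0.47 in 3D and -0.17 in 2D, and the difference of 0.64 was the widest among members. With 1 library per group this difference could not be tested.

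The 250 bases before the RefSeq start of CLK1 (chr2:200864659-200864908, minus strand, GRCh38.p14) are shown beside those of CLK4 (chr5:178627051-178627300, minus strand, GRCh38.p14), because the level of CLK1 rose in hypoxia and that of its nearest relative did not pass. Capitals mark ACGTG or GCGTG on either strand, the core to which hypoxia-inducible factors are known to bind.
CLK1: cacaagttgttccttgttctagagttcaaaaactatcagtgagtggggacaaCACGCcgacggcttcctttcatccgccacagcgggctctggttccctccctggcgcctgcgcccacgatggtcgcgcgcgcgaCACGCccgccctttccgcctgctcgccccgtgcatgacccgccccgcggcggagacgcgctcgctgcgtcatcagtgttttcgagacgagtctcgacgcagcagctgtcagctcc
CLK4: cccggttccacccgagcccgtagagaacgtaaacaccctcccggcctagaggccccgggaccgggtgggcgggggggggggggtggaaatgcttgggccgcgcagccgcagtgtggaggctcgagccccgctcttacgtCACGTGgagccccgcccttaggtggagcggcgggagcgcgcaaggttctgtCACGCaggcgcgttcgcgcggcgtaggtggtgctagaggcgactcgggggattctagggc
CLK1 held 2 matches and CLK4 held 3, of which 1 pair overlaps. Such a match was present in 29 of the 35 members with a listed promoter (82.9%), in 55.4% of the promoters of genes whose mean reached 1 FPKM, and in 43.2% of all 35116 promoters of this length. A member was counted once, by its first listed promoter, while the other shares count every listed promoter, so they are unlike measures. CLK2 held 4 and CLK3 held 1. The matches are letters in a window and are no evidence of binding.

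HNRNPA1P33, the other member that rose, was at 45.5 and 53.7 FPKM in 3D and 2D hypoxia, against 15.4 and 25.6 FPKM in 3D and 2D normoxia. Both hypoxia libraries stood above both normoxia libraries, with log2 ratios of 1.5 in 3D and 1.04 in 2D and an average effect of 1.27 ± 0.15 (SE, limma adjusted p = 0.0184). Its value was 7.58% and 11.8% of that of HNRNPA1 in 3D and 2D hypoxia, against 3.47% and 6.54% in 3D and 2D normoxia. HNRNPA1 itself was at 600.4 and 455.2 FPKM in hypoxia, against 444.0 and 391.8 FPKM in normoxia, without overlap, but its average effect of 0.33 ± 0.14 did not pass (limma adjusted p = 0.225). HNRNPA1P10 (0.17 ± 0.13) and HNRNPA1L2 (0.13 ± 0.15) did not pass (limma adjusted p = 0.449 and 0.617). For these symbols, a higher level and another split of fragments among the copies cannot be told apart.

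None of the 13 SR proteins passed limma in the hypoxia effect, beside 4.84% of all genes, and 0 had an unadjusted p under 0.05, beside 25.6%. The average effects ran from -0.19 (SRSF4) to 0.22 (TRA2A), with a median of 0.06 against -0.01 over all genes, and after rescaling of every library to the same FPKM sum (1000000) that median was -0.06, against -0.14 over all genes. TRA2A, which with TRA2B binds purine-rich enhancers beside SR proteins, was at 36.7 and 44.9 FPKM in 3D and 2D hypoxia, against 34.8 and 34.6 FPKM in 3D and 2D normoxia (0.22 ± 0.13, limma adjusted p = 0.333). TRA2B was at 32.1 and 30.5 FPKM in 3D and 2D hypoxia, against 34.5 and 28.3 FPKM in 3D and 2D normoxia, and its groups overlapped (0.00 ± 0.12, limma adjusted p = 0.994). SRSF6 and TRA2A stood above normoxia in both cultures without overlap and SRSF5 below, 2 and 1 of 13 members, beside 16.7% and 17.5% of all genes. After rescaling, 0 stood above and 3 below, beside 9.43% and 25.2%.

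The hypoxia ratios of SR proteins leaned to opposite sides of 0 in the cultures as deposited. Rescaling put both medians below 0 (-0.20 in 3D and -0.02 in 2D) but left the gap between them nearly unchanged. Of 13, 10 had a ratio below 0 for 3D hypoxia over 3D normoxia (median -0.07), beside 6584 of 12663 genes. For 2D hypoxia over 2D normoxia 11 had a ratio above 0 (median 0.11, but -0.02 after rescaling to a sum of 1000000), beside 6285 genes. Among the 3D ratios below 0, those of SRSF3, SRSF5, SRSF8, SRSF10, SRSF11 and TRA2B did not exceed their counting error for 1 kb. Those of SRSF1, SRSF4, SRSF7 and SRSF9 did. The difference of the responses was below 0 in 12 of 13, beside 6564 of 12663 genes, with a median of -0.26 against -0.01 over all genes. SRSF7, a factor with a zinc knuckle, had the widest difference, -0.40. It was at 46.3 FPKM in 3D hypoxia against 57.1 FPKM in 3D normoxia, and at 60.4 FPKM in 2D hypoxia against 56.4 FPKM in 2D normoxia. SRSF3, known for its role in mRNA export as well as splicing, was at 73.8 against 77.4 FPKM in 3D hypoxia and 3D normoxia, and at 79.4 against 65.8 FPKM in 2D hypoxia and 2D normoxia. All these ratios were under 1.5-fold, the libraries differed in depth between cultures as given above, and the part of depth in this pattern was not tested.

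**Figure D2:**
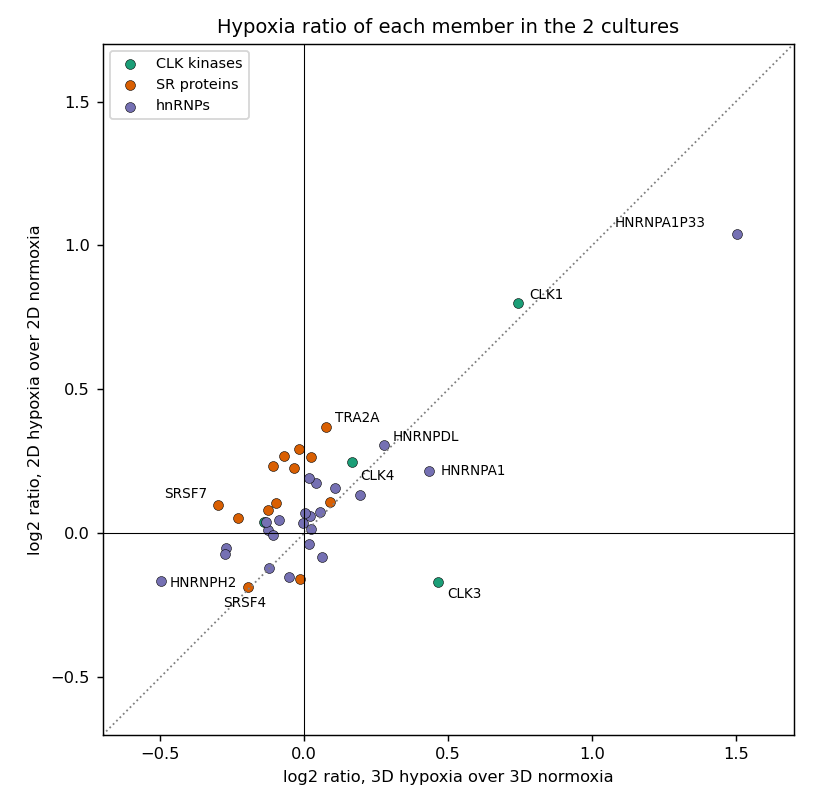
Each point is a member, with its log2 ratio of hypoxia over normoxia in 3D on the horizontal axis and in 2D on the vertical axis; the dotted line marks equal ratios. CLK1 and HNRNPA1P33 stand apart at the upper right, CLK3 lies at 0.47 in 3D and -0.17 in 2D, and 12 of 13 SR proteins lie above the line. Over all genes, which are not plotted, the ratio in 3D was below that in 2D for 6564 of 12663.

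Among hnRNPs, HNRNPA1P33 was the only member of 23 called in the hypoxia effect (4.35%, beside 4.84% of all genes). The median effect of the family was 0.02, but -0.12 after rescaling to a sum of 1000000 and -0.01 without the 3 copies of HNRNPA1. Both hypoxia libraries stood above both normoxia libraries in 4 of 23 and below in 1, beside 16.7% and 17.5% of all genes. After rescaling these were 2 and 2, beside 9.43% and 25.2%. HNRNPDL, a relative of HNRNPD that binds AU-rich RNA, was at 45.1 and 50.2 FPKM in 3D and 2D hypoxia, against 37.1 and 40.3 FPKM in 3D and 2D normoxia (0.29 ± 0.11, limma adjusted p = 0.187). Its groups did not overlap as deposited but did after rescaling. HNRNPH2, a close relative of HNRNPH1, was at 20.0 and 21.2 FPKM in 3D and 2D hypoxia, against 28.7 and 24.0 FPKM in 3D and 2D normoxia (-0.33 ± 0.13, limma adjusted p = 0.192). Single pairs were also set against a 1.5-fold difference. In 3D, CLK1 and HNRNPA1P33 were at least 1.5-fold higher in hypoxia, 2 of 40 members beside 7.81% of all genes (12.4% either way), and in 2D the same 2 genes were, beside 5.91% (11.3% either way). As deposited, 0 members were at least 1.5-fold lower in either culture, beside 4.59% and 5.43% of all genes in 3D and 2D. After rescaling HNRNPH2 was, in 3D (-0.64), beside 9.53% of all genes.

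Culture on Matrigel was then compared with the dish, as an average over both oxygen levels in the same fit. Of 40 members 1 rose, HNRNPA1P10, and 3 fell, HNRNPL, HNRNPU and SRSF4. That is 10.0% of members called, beside 22.0% of all genes (10.4% up and 11.6% down), and 15 members, or 37.5%, had an unadjusted p under 0.05 beside 40.3% of all genes. The split depended on scaling. Rescaling to a sum of 1000000 put the median effect of all genes at -0.21, against -0.03 as deposited. Then 0 members were called up and 15 down (37.5%), beside 767 genes up (6.06%) and 3132 down (24.7%) over all genes. HNRNPA1P10 did not pass in that setting (limma adjusted p = 0.082). After centring on the library medians, 1 member was called up and 1 down, beside 10.2% and 8.56% of all genes. HNRNPU and SRSF4 lost the call there (limma adjusted p = 0.0551 and 0.0663). Without the filter on low values 0 members and only 3 genes in all were called.

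HNRNPL, which binds CA-rich RNA and regulates many alternative exons, was at 136.6 and 137.0 FPKM in 3D hypoxia and normoxia, against 205.0 and 200.1 FPKM in 2D hypoxia and normoxia. Both 3D libraries lay below both 2D libraries, and the average effect was -0.56 ± 0.12 (SE, limma adjusted p = 0.0315). HNRNPU, a scaffold protein of the nuclear matrix that binds chromatin-associated RNA, was at 84.1 and 87.2 FPKM in 3D hypoxia and normoxia, against 115.7 and 128.7 FPKM in 2D hypoxia and normoxia. It too was lower in both 3D libraries (-0.51 ± 0.12, limma adjusted p = 0.0384). HNRNPA1P10 was at 217.9 and 190.2 FPKM in 3D hypoxia and normoxia, against 145.5 and 132.5 FPKM in 2D hypoxia and normoxia (0.55 ± 0.13, limma adjusted p = 0.0335). Its sequence is nearly that of HNRNPA1, as printed above, so this call is uncertain.

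SRSF4, an SR protein with a long arginine-serine stretch, was at 23.1 and 26.6 FPKM in 3D hypoxia and normoxia, against 31.5 and 36.0 FPKM in 2D hypoxia and normoxia. Both 3D libraries lay below both 2D libraries, and the effect was -0.43 ± 0.11 (SE, limma adjusted p = 0.0481). It was the single SR protein of 13 called (7.69%, beside 22.0% of all genes). SRSF8, a retrotransposed relative of SRSF2, stood the other way, at 9.36 and 10.2 FPKM in 3D hypoxia and normoxia, against 7.85 and 6.54 FPKM in 2D hypoxia and normoxia. Its effect of 0.40 ± 0.14 did not pass (limma adjusted p = 0.0851). SRSF2, a factor that binds exonic enhancers in the nucleus, was at 111.0 and 109.1 FPKM in 3D hypoxia and normoxia, against 146.9 and 121.9 FPKM in 2D hypoxia and normoxia (-0.28 ± 0.13, limma adjusted p = 0.17). Over the 13 SR proteins the median effect was 0.00 against -0.03 over all genes, with 7 above 0 and 6 below, but -0.20 after rescaling to a sum of 1000000.

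By limma, 2 of 23 hnRNPs fell on Matrigel (8.7%) and 1 rose, beside 11.6% and 10.4% of all genes, so the share that fell was not above that of all genes. After rescaling, 12 fell (52.2%) and 0 rose, beside 24.7% and 6.06% of all genes. After centring 1 fell and 1 rose, beside 8.56% and 10.2%. Their median effect was -0.23 (-0.19 after centring, -0.43 after rescaling, against 0.01 and -0.21 over all genes), with 17 of 23 below 0. In 15 of 23, or 65.2%, both 3D libraries lay below both 2D libraries, beside 30.1% of all genes, and in 3 of 23, or 13.0%, both lay above, beside 25.6%. After rescaling these were 18 and 1 of 23, beside 43.1% and 13.9% of all genes. Among the 15 were the abundant HNRNPA2B1 and HNRNPH1. HNRNPA2B1 was at 247.5 and 298.9 FPKM in 3D hypoxia and normoxia, against 349.9 and 362.6 FPKM in 2D hypoxia and normoxia (-0.39 ± 0.14, limma adjusted p = 0.0963). HNRNPH1 was at 176.0 and 173.8 FPKM in 3D hypoxia and normoxia, against 249.1 and 217.9 FPKM in 2D hypoxia and normoxia (-0.41 ± 0.13, limma adjusted p = 0.074). HNRNPM, a repressor that binds GU-rich RNA, had an effect of -0.43 ± 0.12 (limma adjusted p = 0.0584), and HNRNPK, at 232.0 and 225.4 FPKM in 3D hypoxia and normoxia against 274.6 and 243.0 FPKM in 2D hypoxia and normoxia, one of -0.18 ± 0.13 (limma adjusted p = 0.362). The 3 that stood above were HNRNPA1P10, HNRNPA3 and HNRNPLL. HNRNPA1 had an effect of 0.29 ± 0.14 (limma adjusted p = 0.192), and its groups overlapped.

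**Figure D3:**
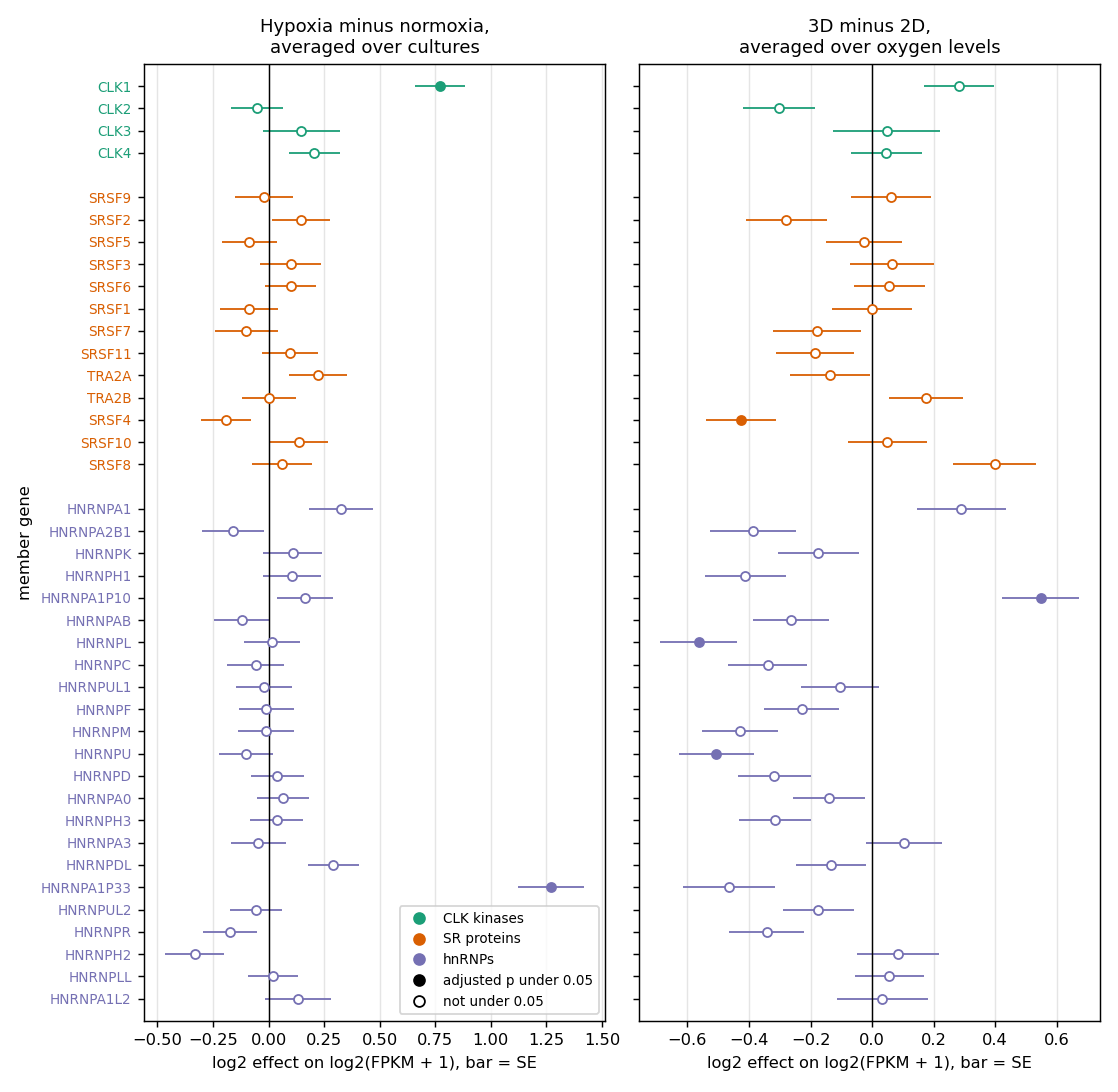
Average effects of hypoxia (left) and of 3D culture (right) on log2(FPKM + 1) for each member, with bars for the standard error from limma and filled symbols for an adjusted p under 0.05. Filled on the left are CLK1 (0.77) and HNRNPA1P33 (1.27), and on the right SRSF4 (-0.43), HNRNPA1P10 (0.55), HNRNPL (-0.56) and HNRNPU (-0.51).

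Among CLK kinases, 0 of 4 were called by limma in the 3D effect, beside 22.0% of all genes. An unadjusted p under 0.05 was found in 2 of 4, beside 40.3% of all genes. CLK2 was the only one without overlap, beside 30.1% of all genes with both 3D libraries below and 25.6% with both above. It was at 16.8 and 18.7 FPKM in 3D hypoxia and normoxia, against 22.4 and 21.8 FPKM in 2D hypoxia and normoxia (-0.30 ± 0.12, limma adjusted p = 0.116). After rescaling to a sum of 1000000 it passed (adjusted p = 0.031). CLK1 had an effect of 0.28 ± 0.11 (limma adjusted p = 0.123), CLK3 0.05 ± 0.17 and CLK4 0.05 ± 0.12. In single pairs, 1 of 40 members was at least 1.5-fold lower for 3D over 2D in normoxia, HNRNPA1P33, beside 10.0% of all genes (18.8% either way), and 0 were higher, beside 8.79%. After rescaling to a sum of 1000000, 5 members were at least 1.5-fold lower and 0 higher. The median ratio of all genes was then -0.215, against -0.0305 as deposited. In hypoxia 0 were at least 1.5-fold different, beside 20.8% of all genes (10.7% higher and 10.1% lower). After rescaling 9 were lower and 0 higher, with a median ratio of all genes of -0.214, against -0.0289 as deposited. The share of all genes past 1.5-fold was not counted after rescaling for these pairs, so the 5 and the 9 have no share beside them.

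**Figure D4:**
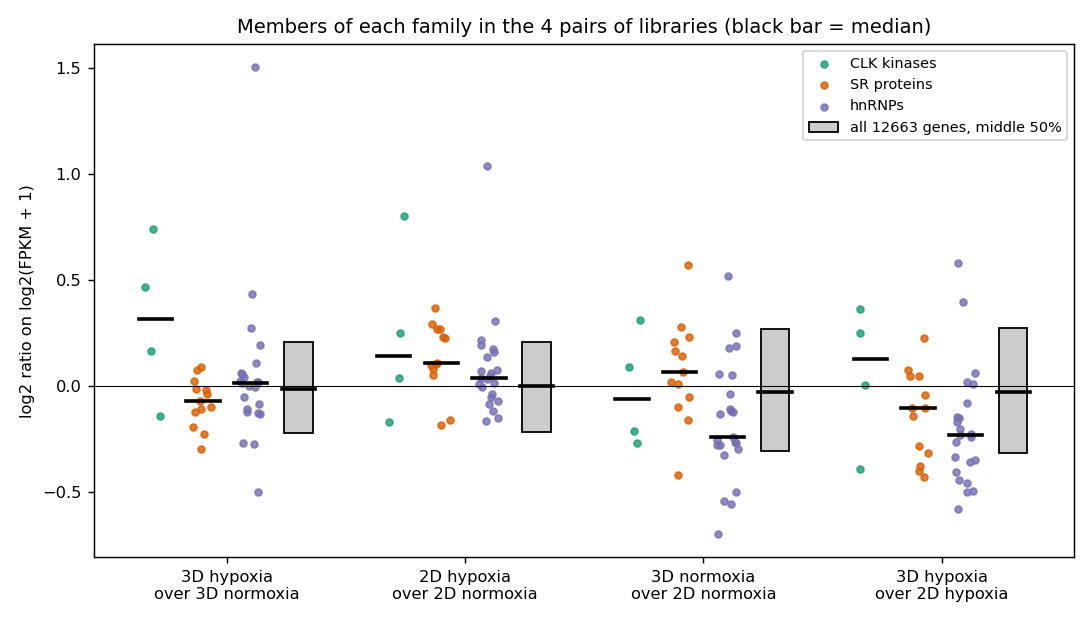
Log2 ratios of the members in the 4 pairs of libraries, by family, with the family median as a black bar and the middle 50% of all 12663 genes as a grey box. The hnRNP median lies at -0.24 and -0.23 in the 3D over 2D pairs, against 0.02 and 0.04 in the hypoxia over normoxia pairs (-0.12 and -0.09 after rescaling to a sum of 1000000). The SR median lies at -0.07 and 0.11 for hypoxia in 3D and 2D (-0.20 and -0.02 after rescaling).

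Genes of other parts of the splicing machinery were called lower on Matrigel, by counts that depended on scaling. Of 23 SR-related proteins, which carry arginine-serine stretches without being classical SR proteins, 8 fell and 0 rose, and 23 of 23 effects were below 0 (median -0.35). They included SUGP2 (-0.74 ± 0.12), THRAP3 (-0.66), SCAF4 (-0.63) and RBM25 (-0.61). Of 38 core spliceosome genes 9 fell and 0 rose, with 29 effects below 0 and 9 above and a median of -0.20. Among those above 0 were SF3B5 (0.39) and SNRPE (0.31), small proteins of the U2 particle and of the Sm ring, which did not pass. Those that fell included PRPF8, the scaffold of the catalytic core, at 70.5 and 73.7 FPKM in 3D hypoxia and normoxia against 127.4 and 132.9 FPKM in 2D hypoxia and normoxia (-0.84 ± 0.12, limma adjusted p = 0.013), PRPF3 (-0.69), DDX23 (-0.64) and DHX15 (-0.63). Of 15 genes of the exon junction complex and nonsense-mediated decay 7 fell and 0 rose (median -0.44, with 13 effects below 0 and 2 above, MAGOHB at 0.42 and RBM8A at 0.13, neither of which passed). Among the 7 were UPF2 (-0.70), UPF3B (-0.68), UPF1, the helicase of decay (-0.67), and SMG9 (-0.57). These shares of genes that fell, 8 of 23, 9 of 38 and 7 of 15, stand beside 11.6% over all genes. They were 6, 8 and 5 after centring on the median, beside 8.56%, and 19, 16 and 10 after rescaling, beside 24.7%.

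The 16 measured RNA-binding proteins that belong to the hnRNP class under other names had a median 3D effect of -0.23. Of them TAF15 was called down (-0.56 ± 0.13) and 0 up, beside 11.6% and 10.4% of all genes. SYNCRIP (-0.39), KHSRP (-0.32) and PCBP2 (0.31) did not pass. After rescaling, 9 of 16 were called down, SYNCRIP and KHSRP included, with a median of -0.43, beside 24.7% down and a median of -0.21 over all genes. Of 6 measured kinases and import factors of SR proteins other than CLKs, DYRK1B rose (0.75 ± 0.11) and TNPO3, which imports SR proteins into the nucleus, fell (-0.52 ± 0.12). SRPK1 and SRPK2, the cytoplasmic SR kinases, had effects of -0.28 and -0.38 and did not pass as deposited. After rescaling, 5 of the 6 were called down, SRPK1 and SRPK2 included (limma adjusted p = 0.0313 and 0.024), and DYRK1B up. Over all genes 24.7% were then called down and 6.06% up. After centring DYRK1B kept its call and TNPO3 lost it. Among 16 measured regulators of other families, RBM3, an RNA-binding protein induced by cold, rose on Matrigel (0.86 ± 0.15) and 0 fell, with a list median of 0.05. After rescaling the median was -0.15, and 1 was called up and 3 down, beside 6.06% and 24.7% of all genes.

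Under hypoxia, PTBP3 and MBNL2 were the splicing genes of these lists that rose. PTBP3, a polypyrimidine tract binder, was at 35.8 and 29.5 FPKM in 3D and 2D hypoxia, against 21.6 and 17.7 FPKM in 3D and 2D normoxia (0.70 ± 0.11, limma adjusted p = 0.0343). MBNL2, a muscleblind factor, was at 10.4 and 8.83 FPKM in 3D and 2D hypoxia, against 4.34 and 5.46 FPKM in 3D and 2D normoxia (0.85 ± 0.16, limma adjusted p = 0.0457). Both calls were lost after centring on the median. After rescaling PTBP3 kept its call (limma adjusted p = 0.0482) and MBNL2 lost it (0.0545). RBM3 was at 83.9 and 53.1 FPKM in 3D and 2D hypoxia, against 60.9 and 28.5 FPKM in 3D and 2D normoxia, and RBFOX2 at 15.4 and 19.0 FPKM against 9.94 and 13.0 FPKM. Neither passed (limma adjusted p = 0.0659 and 0.0589). As deposited, after centring and after rescaling, limma called 0 genes for hypoxia among SR-related proteins, core spliceosome genes, the decay genes and the SR kinases. Over all genes it called 4.84%, 1.96% and 6.14% in the same order.

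Proliferation genes were lower on Matrigel too. Of 14, 11 fell on Matrigel, beside 11.6% of all genes, and 14 of 14 effects were below 0, with a median of -0.98. MKI67, a marker of cycling cells, was at 24.0 and 32.3 FPKM in 3D hypoxia and normoxia, against 78.1 and 93.4 FPKM in 2D hypoxia and normoxia (-1.58 ± 0.12, limma adjusted p = 0.00519). TOP2A (-1.38), MCM4 (-1.16) and AURKA (-1.05) fell as well. For hypoxia the median of this list was -0.38, with 14 of 14 effects below 0, and limma called 0 of 14, beside 4.84% of all genes. After rescaling it called 5 of 14 down, with a median of -0.51, beside 3.75% of all genes down. The part of proliferation in the lower hnRNP and spliceosome levels was not tested.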

How the data were processed

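Each deposited file lists, per the file headers, the FPKM of every symbol in a single library, as the authors made it. The submitters' processing notes name build hg19 and Cuffdiff 2.2.1, SAMtools 0.1.18, Bowtie2 2.2.8 and TopHat2 2.1.1, with no roles. Gene annotation, library scaling, strand setting and read length are not stated in these sources. Libraries were made with a stranded mRNA kit, per the labels' protocols. The 4 files were joined by symbol, and the 12663 genes whose mean reached 1 FPKM were fitted as log2(FPKM + 1), which understates differences of low genes. Average effects of hypoxia and culture came from limma 3.58.1 in R 4.3.3 (additive terms, trend, 1 residual degree of freedom, Benjamini-Hochberg at 0.05). Noise and a true difference of the hypoxia response between cultures both enter this residual. With 1 library per group, the p-values reflect spread among the 4 libraries alone, which may be technical. For each gene, limma drew the variance towards a trend over all genes. That trend weighed 4.67 degrees of freedom (median) against the gene's own 1, so the standard errors are mostly shared spread. Pairs were described at 1.5-fold with no test. Depth was estimated as the inverse of the most frequent small product of FPKM and length among 2134 genes with a single GENCODE 29 transcript, an annotation of another build used only for lengths and sequences; 56 to 71 genes lay near that product per library. Counting errors cover sampling of fragments only. Promoters are RefSeq's, GRCh38.p14. Every member may be named; all 4 values are given for CLK and TRA2 genes, called members, the 5 highest and members past 1.5-fold, and up to 4 genes per other list. Further members named for a pattern were chosen after their values were seen. The members and lists were chosen with earlier results of these data known. HNRPDL and HNRPLL of the list of other hnRNP-type genes are listed as HNRNPDL and HNRNPLL and counted as members. Tables and plots used pandas 2.3.3, numpy 2.4.6 and matplotlib 3.10.9 (Python 3.11.15). Alternatives changed the pseudocount, scaling, filter and trend.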

Additional observations from a re-analysis of the deposited data

Results flagged for a closer look

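With 1 library per group, none of the following differences was tested. They are given because the effect of the same contrast ran in opposite directions in the other culture or at the other oxygen level, by at least 0.1 each way on the log2 scale for a gene and 0.05 for a family median. The median hypoxia ratio of SR proteins was -0.07 in 3D and 0.11 in 2D, a difference of -0.18, although both ratios were below 0 after rescaling of the libraries to a common FPKM sum (-0.20 and -0.02). Their median 3D over 2D ratio was -0.11 in hypoxia and 0.07 in normoxia, a difference of -0.17, and likewise both below 0 after rescaling (-0.30 and -0.13). The median 3D over 2D ratio of CLK kinases was 0.13 in hypoxia and -0.06 in normoxia, a difference of 0.19, and both below 0 after rescaling (-0.06 and -0.25). In each of these families rescaling moved both medians together, so the difference between them stayed nearly the same. For CLK3 the difference was 0.64 in both contrasts, with 3D over 2D ratios of 0.37 in hypoxia and -0.27 in normoxia. As deposited, SRSF3 (-0.34), SRSF1 (-0.28) and SRSF10 (-0.31) were lower in 3D than in 2D under hypoxia and higher in 3D under normoxia. After rescaling SRSF1 was lower in 3D at both oxygen levels. SRSF3 and SRSF10 were then higher in 3D under normoxia by less than 0.1. SRSF8 had hypoxia ratios of -0.11 in 3D and 0.23 in 2D, a difference of -0.34.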

How the results depend on the processing

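No paired analysis was possible because no group has replicate libraries whose numbers could pair them; culture is already a term of the hypoxia fit, so that fit compares within each culture. Scaling and the filter on low values matter most here. Over all genes, the hypoxia effect had 613 calls, against 248 after median centring, 5 without the filter, 366 without trend and 1286 without small RNA genes and genes at 0. The 3D effect had 2785, against 3899 after rescaling, 2381 after centring and 3 without the filter. Members called numbered 2 for hypoxia (0 without the filter) and 4 for 3D (15 after rescaling to a sum of 1000000, 2 after centring, 0 without the filter). SRSF4 also lost its call without trend (adjusted p = 0.0656), and HNRNPA1P33 (0.0444) and HNRNPM (0.0397) gained one for 3D without small RNA genes and genes at 0.

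Rescaling moved the family medians of the log2 ratios. For SR proteins they became -0.20 (3D hypoxia over 3D normoxia), -0.024 (2D hypoxia over 2D normoxia), -0.13 (3D over 2D in normoxia) and -0.30 (3D over 2D in hypoxia); for hnRNPs -0.12, -0.093, -0.44 and -0.43 in that order; for CLK kinases 0.20, 0.021, -0.25 and -0.061. Leaving out the HNRNPA1 copies, an alternative chosen after seeing the data, moved no hnRNP median by more than 0.1. Members at least 1.5-fold different for 3D over 2D in normoxia numbered 1, against 2 with a pseudocount of 0.1, 5 after rescaling and 2 after centring. In hypoxia they numbered 0, against 1, 9 and 1. The share of all genes past that fold was not counted for these alternatives.

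Effects that were not called changed sign on rescaling, for hypoxia in HNRNPA0 -0.067, HNRNPD -0.093, HNRNPH1 -0.028, HNRNPH3 -0.10, HNRNPK -0.025, HNRNPL -0.12, HNRNPLL -0.11, SRSF11 -0.035, SRSF3 -0.033, SRSF6 -0.033, SRSF8 -0.059, TRA2B -0.13, and for 3D in CLK3 -0.15, CLK4 -0.14, HNRNPA1L2 -0.13, HNRNPA3 -0.092, HNRNPH2 -0.11, HNRNPLL -0.13, SRSF1 -0.20, SRSF10 -0.14, SRSF3 -0.13, SRSF6 -0.14, SRSF9 -0.14, TRA2B -0.017. On centring, the hypoxia effect of TRA2B became -0.00091 and the 3D effect of SRSF5 0.014. Counting error limited a ratio to 0.38 for HNRNPA1L2 and to at most 0.20 for the other members. The cause of the lost and gained calls was not tested.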

Other observations

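Outside the members, HNRNPU-AS1, annotated antisense to HNRNPU, was at 17.7 and 16.6 FPKM in 3D and 2D hypoxia, against 14.1 and 12.3 FPKM in 3D and 2D normoxia. Whether counting used strand is not stated in these sources, and without it fragments of HNRNPU and of its antisense partner cannot be told apart. The readthrough symbol HNRNPUL2-BSCL2 was at 37.3 and 40.9 FPKM in 3D hypoxia and normoxia, against 41.5 and 47.7 FPKM in 2D hypoxia and normoxia, beside 30.3 and 32.8 against 35.7 and 35.8 FPKM for HNRNPUL2. SRSF12, below the level required of members, was at 0.283 and 0.667 FPKM in 3D and 2D hypoxia, against 0.361 and 0.288 FPKM in 3D and 2D normoxia.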
